A study of Mus musculus with 19 samples.

Results

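The 6 mouse DMRT genes Dmrt1, Dmrt2, Dmrt3, Dmrta1, Dmrta2 and Dmrtb1 were examined for occupancy by the transcription factor SOX3 in postnatal testis, out of 26182 RefSeq genes. The rule that chose them used the gene names and no measured value, though earlier results of these data were known at the choice. The 5 Dmrtc genes of the family were read separately. For each gene, every SOX3 ChIP-seq peak was taken that lay within 2 kb of an annotated start site (promoter peak), in the rest of the gene, or up to 50 kb outside it, separately in each of 2 replicates. The study of the transcription factor ZBTB16 in spermatogonia, from which the libraries come, labelled 19 samples, and 4 of them were analysed here: 2 replicates of SOX3 ChIP-seq and 2 of SOX3 ChIP-nexus, in which an exonuclease trims the precipitated DNA back to the protein contact. All 4 were labelled as mouse testis at postnatal day 7, while the paper's methods give this day or the next for transcription factor ChIP. The mice had a C57BL/6J background, and for transcription factor ChIP the study pooled seminiferous tubules of several mice. No deletion or treatment is given for these samples. The labels list 2 SOX3 antibodies for the ChIP-seq samples without saying which was used in which replicate. Within the testis, the paper describes SOX3 as specific to undifferentiated spermatogonia, which was not checked here. Chromatin from whole tubules mixes germ and somatic cells, so that occupancy in fewer cells and weaker occupancy in each cell cannot be told apart. The cell types present could not be checked from peak lists.

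DMRT proteins bind DNA through the DM domain, a zinc-binding module first known from sex-determining genes of flies and worms. Dmrt1 is the member best known in the testis: it maintains male fate in Sertoli cells and restrains the entry of spermatogonia into meiosis. Dmrt3 marks interneurons of the spinal cord that coordinate gait, Dmrt2 acts in somite patterning, Dmrta1 and Dmrta2 act in the developing nervous system, and Dmrtb1 (also called Dmrt6) acts in the passage of spermatogonia from mitotic divisions to meiosis.

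Dmrt1, Dmrt3 and Dmrt2 lie in this order on the plus strand of chromosome 19 (GRCm38.p6, the assembly of mm10). Dmrt1 spans chr19:25505706-25604328, Dmrt3 spans chr19:25610537-25623921 and Dmrt2 spans chr19:25672411-25678991. Only 6.21 kb separate Dmrt1 from Dmrt3, and 48.5 kb separate Dmrt3 from Dmrt2, so that the 3 genes fill 173 kb and a peak can lie within 50 kb of more than 1 of them. The other members are apart from each other on chromosome 4: Dmrta1 at chr4:89688198-89694766 and Dmrta2 at chr4:109978025-109983684 on the plus strand, and Dmrtb1 at chr4:107676290-107684230 on the minus strand, with 2 annotated start sites. Dmrt1 is the long gene of the family, with 98623 bp against 5660 to 13385 bp for the other members.

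A promoter peak was listed for 5 of the 6 genes in replicate 1 and for 3 of them in replicate 2. Among all genes, 62.7% had a promoter peak in replicate 1 and 54.7% in replicate 2. Dmrt1, Dmrt3 and Dmrta1 had a promoter peak in both replicates (3 of 6, against 52.2% of all genes), and at each of these 3 genes the peaks of the replicates overlapped (50.8% of all genes). Dmrt2 and Dmrta2 had a promoter peak in replicate 1 only, and Dmrtb1 had none in either list. The counts of the family lay above the share of all genes in replicate 1 and slightly below it in replicate 2, and with 6 genes nothing particular to the family was read from them.

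At Dmrt1, the peak covered the start site and overlapped exon 1 in both replicates. In replicate 1 it was 2565 bp wide (chr19:25504624-25507188) and had a q score, −10log10 of the adjusted p-value as given by the authors' caller, of 247. In replicate 2 it was 2194 bp wide (chr19:25504915-25507108), with a q score of 150. The replicate 2 peak lay entirely within that of replicate 1 and covered 85.5% of it. The log2 ratio of ChIP over input was 3.81 and 3.63, or 3.72 ± 0.13 (SD, n = 2). The median log2 ratio over the strongest promoter peaks of all genes that had one was 3.67 in replicate 1 and 2.72 in replicate 2. The SD therefore does not separate the spread of a gene from this shift between the lists. Among the strongest promoter peaks of all genes that had one, its q score stood at percentile 69.2 in replicate 1 and at percentile 85.6 in replicate 2. By log2 ratio it stood at percentiles 56.2 and 92.5, near the middle in replicate 1 and high in replicate 2.

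Dmrta1, a gene of the developing forebrain, had the strongest promoter peak of the family in replicate 1 and the next after Dmrt1 in replicate 2. Its peak covered the start site and overlapped exon 1 in both replicates. It was 1835 bp wide in replicate 1 (chr4:89687518-89689352) and 1520 bp wide in replicate 2 (chr4:89687693-89689212). The q score was 350 in replicate 1 and 110 in replicate 2, at percentiles 85.2 and 69.2. The log2 ratio was 5.04 and 3.46, or 4.25 ± 1.11 (SD, n = 2), at percentiles 93.4 and 88.7. The order of Dmrta1 and Dmrt1 was reversed between the replicates, by q score and by log2 ratio, so neither gene was read as the stronger. No other peak lay within 50 kb of Dmrta1 in either list.

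Dmrt3 was the third in both replicates. Its promoter peak was 1674 bp wide in replicate 1 (chr19:25609956-25611629, q score 91.2) and covered the start site. In replicate 2 it was 828 bp wide (chr19:25610698-25611525, q score 33.6), began 161 bp after the start site and passed the authors' threshold of 30 by a small margin. The log2 ratio was 3.27 and 1.75, or 2.51 ± 1.08 (SD, n = 2). Within each list, its log2 ratio lay below those of Dmrt1 and Dmrta1. Its q score stood at percentiles 30.6 and 5.22 of the promoter peaks. The replicate 2 peak lay wholly inside that of replicate 1, but covered 49.5% of it, just under the 50% taken here as found in the other replicate. The plot of the strongest promoter peaks shows these positions against all genes.

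**Figure D1:**
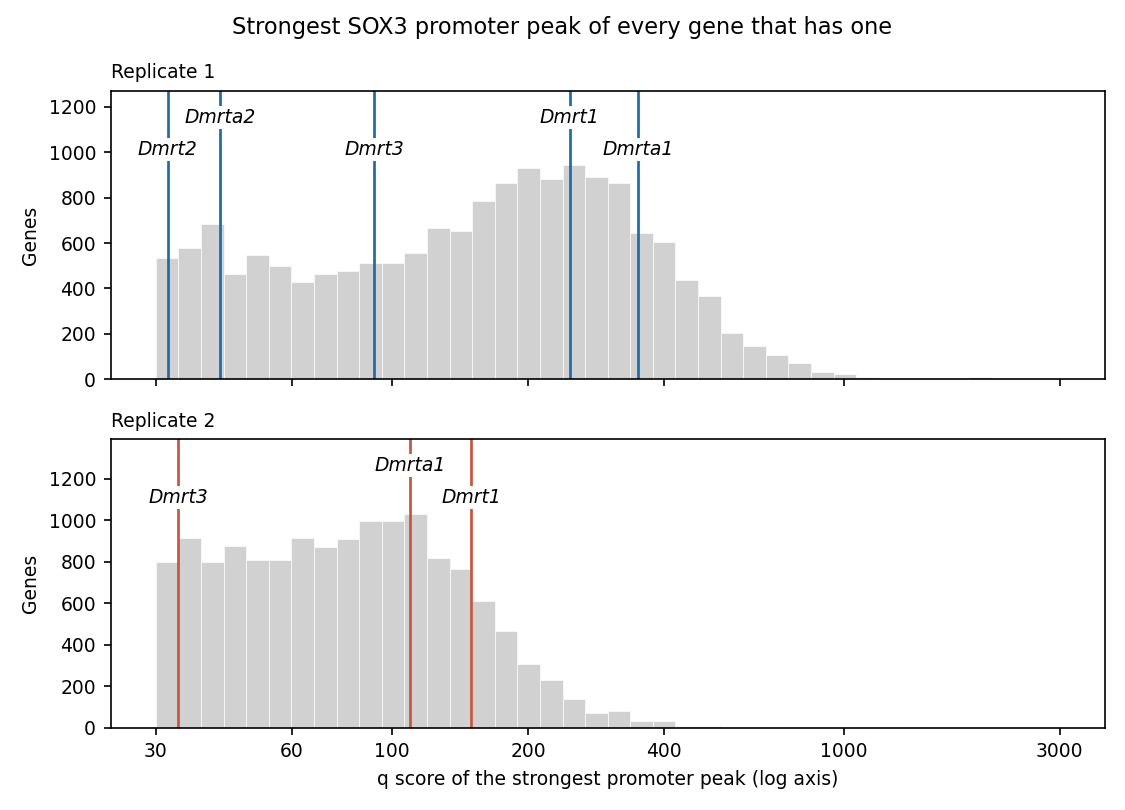
Number of genes (vertical axis) by the q score of their strongest SOX3 promoter peak (horizontal log axis, −10log10 of the adjusted p-value), in replicate 1 (top, 16417 genes) and replicate 2 (bottom, 14310 genes), with a vertical line for each Dmrt gene that has one. Dmrt1 and Dmrta1 lie to the right of the median in both panels (165 and 78.8), while Dmrt3 lies to the left of it in both.

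The q scores of the 2 lists are not on a common scale: of the 13665 genes with a promoter peak in both, 95.9% had the higher score in replicate 1, and the median ratio of replicate 1 to replicate 2 was 2.29 (interquartile range 1.74 to 2.88). The ratio was 1.65 for Dmrt1, 2.72 for Dmrt3 and 3.19 for Dmrta1. Dmrt1 was below this range, Dmrta1 above it and Dmrt3 inside it. The cause of this shift between the lists was not tested. Log2 ratios were shifted as well, with a median of 3.67 in replicate 1 and 2.72 in replicate 2, so the means and SDs above include that shift. The position of a gene is therefore better read from its percentile within each list.

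The promoter peaks of Dmrt2 and Dmrta2 were of another kind. That of Dmrt2 (chr19:25673774-25674328, 555 bp, overlapping exon 2) began 1363 bp after the start site, with a q score of 31.8 and a log2 ratio of 2.15. That of Dmrta2 (chr4:109979942-109980474, 533 bp, overlapping exon 2) began 1917 bp after the start site, with a q score of 41.7 and a log2 ratio of 2.51. Both were narrow, neither reached the start site, and they stood at percentiles 2.09 and 10.3 of promoter peaks by q score. In replicate 2, the nearest peak to the start site was 60.9 kb away for Dmrt2 and 7.57 kb away for Dmrta2. The pair of q score and log2 ratio at Dmrt2 was shared by 642 peaks of the replicate 1 list and that at Dmrta2 by 435, compared with 45 for Dmrt3, 11 for Dmrt1 and 7 for Dmrta1. In that list, 70.7% of all peaks had a pair shared by at least 100 peaks. The same held for 27 of the 33 replicate 1 peaks of the members. Repeated scores alone therefore do not set the peaks of Dmrt2 and Dmrta2 apart from the list. Whether such repeated scores come from windows with the same few reads was not tested. With a promoter of 1 kb either side of the start site, Dmrt2 and Dmrta2 had no promoter peak in either list.

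Dmrt2 shares its upstream side with the gene 2610016A17Rik, which is transcribed in the opposite direction from a start site 172 bp away. The promoter window of that gene held the same replicate 1 peak and no peak in replicate 2. Besides the DMRT genes themselves, it was the only gene whose start site lay within 50 kb of a member.

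Dmrtb1, which acts in spermatogonia, had its nearest peak 20.1 kb upstream of a start site in replicate 1 (chr4:107704326-107704782, q score 31.4) and 14.1 kb downstream in replicate 2 (chr4:107668943-107669449, q score 31.9). Both scores were close to the threshold, and neither peak was matched in the other list. The lists leave out windows below the threshold, so that no promoter peak here means none above a q score of 30.

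The promoter sequences of the members were read to set their base composition beside their peaks. The RefSeq promoter table (GRCm38.p6), with windows from 250 bases before to 50 bases after a start site, held 6 windows of 5 members: Dmrt2, Dmrt3, Dmrta1, Dmrta2 and, for both start sites, Dmrtb1. Dmrt1 had no entry. The windows of Dmrta1 (chr4:89687948-89688247, plus strand) and Dmrt3 (chr19:25610287-25610586, plus strand) are printed as those with a peak within 2 kb in both replicates. The window of Dmrta2 (chr4:109977775-109978074, plus strand) is printed as CpG-rich with a peak in replicate 1 only, and that of Dmrtb1 (chr4:107683540-107683839, minus strand) as CpG-rich without a peak. Sequences run 5′ to 3′ on the strand of the gene, and capitals mark each CpG.
Dmrta1: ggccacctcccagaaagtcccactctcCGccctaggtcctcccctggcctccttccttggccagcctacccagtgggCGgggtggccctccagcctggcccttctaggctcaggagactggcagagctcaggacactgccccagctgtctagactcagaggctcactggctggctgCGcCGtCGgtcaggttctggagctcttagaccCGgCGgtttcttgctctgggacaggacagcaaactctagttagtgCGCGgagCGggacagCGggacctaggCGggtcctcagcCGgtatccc
Dmrt3: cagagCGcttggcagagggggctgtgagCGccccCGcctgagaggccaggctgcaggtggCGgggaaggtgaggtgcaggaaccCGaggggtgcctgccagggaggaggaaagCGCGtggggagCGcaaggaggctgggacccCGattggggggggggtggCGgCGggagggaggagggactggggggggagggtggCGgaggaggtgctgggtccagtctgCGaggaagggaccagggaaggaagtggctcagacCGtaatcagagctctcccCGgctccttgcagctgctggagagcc
Dmrta2: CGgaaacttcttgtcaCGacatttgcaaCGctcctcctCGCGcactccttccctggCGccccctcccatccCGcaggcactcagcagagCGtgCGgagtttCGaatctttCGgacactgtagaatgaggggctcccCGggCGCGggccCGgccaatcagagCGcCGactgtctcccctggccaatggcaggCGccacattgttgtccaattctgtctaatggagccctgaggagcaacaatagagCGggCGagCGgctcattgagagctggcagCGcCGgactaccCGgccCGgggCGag
Dmrtb1: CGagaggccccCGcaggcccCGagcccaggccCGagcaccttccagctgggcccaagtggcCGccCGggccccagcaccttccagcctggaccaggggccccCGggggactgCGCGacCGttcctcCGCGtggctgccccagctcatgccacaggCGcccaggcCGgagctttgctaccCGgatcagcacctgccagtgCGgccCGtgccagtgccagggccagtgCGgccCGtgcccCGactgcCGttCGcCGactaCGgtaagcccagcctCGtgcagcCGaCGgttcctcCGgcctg

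A CpG observed over expected of at least 0.6 with a GC content of at least 50% was taken as CpG-rich. Of 32851 promoter windows in the table, 10996 were CpG-rich, and of these 95.2% had a SOX3 peak within 2 kb in replicate 1 and 88.9% in replicate 2. Of the 21855 other windows, 32.9% and 24.5% had one. Dmrta2 (26 CpGs, observed over expected 0.86, GC 63.7%) and Dmrt2 (18 CpGs, 0.62, GC 62.7%) were in the CpG-rich class and had a peak in replicate 1 only. One of the windows of Dmrtb1 (28 CpGs, 0.68, GC 74.7%) was in this class and had none. Dmrta1 (13 CpGs, 0.41, GC 65.3%) and Dmrt3 (15 CpGs, 0.47, GC 70.7%) were outside it and had a peak in both lists. The second window of Dmrtb1 (9 CpGs, 0.61, GC 44.7%) was kept out of the class by its GC content alone.

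**Figure D2:**
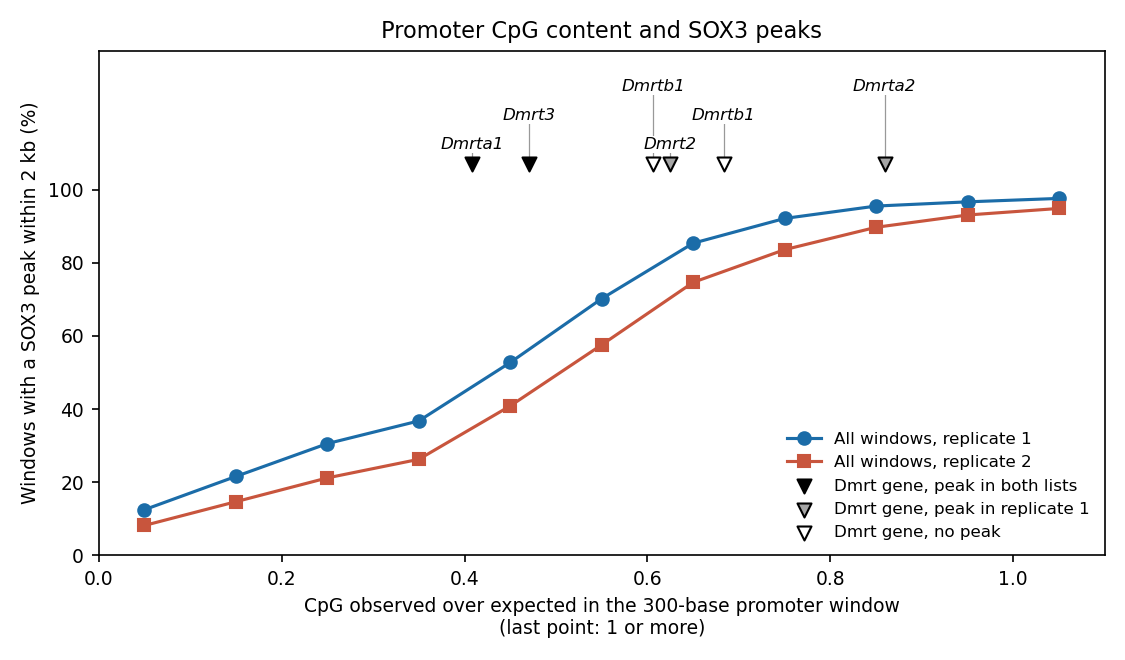
Share of promoter windows with a SOX3 peak within 2 kb (vertical axis, %) by their CpG observed over expected (horizontal axis, in steps of 0.1), for replicate 1 (circles) and replicate 2 (squares). Triangles at the top place the 6 windows of 5 Dmrt genes on the horizontal axis: the 2 with a peak in both lists (black) lie to the left of the 2 with a peak in replicate 1 only (grey) and of the 2 windows of Dmrtb1 without a peak (white).

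Within the peaks themselves, the composition was different from that of the promoter windows. In the central 300 bp of the promoter peaks, Dmrta1 had 41 and 42 CpGs in replicates 1 and 2 (observed over expected 1.11 and 1.12), Dmrt3 had 39 and 42 (0.91 and 0.97) and Dmrt1 had 30 and 31 (0.85 and 0.87). The median over all peaks was 5 CpGs (0.28) in replicate 1 and 6 CpGs (0.31) in replicate 2. The replicate 1 peak of Dmrta2 had 37 CpGs (1.02) and that of Dmrt2 had 15 (0.51). All 5 genes thus had more CpGs at the centre of their promoter peak than the median peak, the 2 with a weak peak included. That median is over peaks at any place, and the centres of other genes' promoter peaks were not measured separately. Nothing particular to these genes was therefore read from it. The peak midpoints of Dmrta1 and Dmrt3 lay 0.24 to 0.57 kb after the start site, that is, beyond the end of the promoter windows printed above.

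Short words were searched on both strands. The SOX words were AACAAT, its neighbour in the SOX core ACAATG and the further variant ACAAAG. The DMRT word was ACATTGT, and the word of the GC box was GGGCGG. The reverse complement of ACATTGT is ACAATGT, which holds the whole SOX word ACAATG, so each ACATTGT was also counted as ACAATG. Over all promoter windows, 10.7% held AACAAT, 12.6% held ACAATG, 18.7% held ACAAAG, 2.96% held ACATTGT and 35.7% held GGGCGG. Among the member windows, SOX words were found only in that of Dmrta2, with AACAAT beginning 53 and 15 bases before the start site and ACAATG beginning 54 bases before it. ACATTGT began 55 bases before the start site and is the same site as that ACAATG. The replicate 1 peak of Dmrta2 did not cover these words. GGGCGG was found in the window of Dmrta1 and in a window of Dmrtb1.

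Further from the start sites, Dmrt1 held most peaks of the family. Peaks in the gene body outside the promoter were listed for Dmrt1, Dmrt3 and Dmrta2 in replicate 1 (3 of 6, against 35.7% of all genes) and for Dmrt1 in replicate 2 (1 of 6, against 27.9%). Dmrt1 had 10 such peaks in replicate 1, with q scores of 31.8 to 56.4 and log2 ratios of 2.15 to 3.45. It had 4 in replicate 2, with q scores of 31.2 to 48.2 and log2 ratios of 2.03 to 2.92. All of them were weaker than the promoter peak of the gene in the same list. Long genes can hold more peaks: the 4028 genes of 50 to 200 kb had a median of 1 body peak in each list, and 92.8% of them had fewer than Dmrt1 in replicate 1 and 85.8% in replicate 2.

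Of these body peaks of Dmrt1, 2 were found in both replicates. The first lay in an intron (chr19:25536796-25537871 in replicate 1, chr19:25536361-25538055 in replicate 2), 31.1 and 30.7 kb after the start site. In replicate 1 its q score was 56.4 and its log2 ratio 2.96, and in replicate 2 they were 48.2 and 2.43. The second overlapped exon 3 (chr19:25545602-25546508 and chr19:25545848-25546401), 39.9 and 40.1 kb after it, with a q score of 45.5 and a log2 ratio of 2.96 in replicate 1 and of 32.3 and 2.03 in replicate 2. The other 8 body peaks of replicate 1 and 2 of replicate 2 had no counterpart in the other list. The word ACATTGT was held by 1 body peak of each list, which were different peaks (chr19:25589830-25590462 in replicate 1 and chr19:25591844-25592386 in replicate 2). Both therefore held the SOX word ACAATG as well.

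A peak between Dmrt1 and Dmrt3 was listed in both replicates. In replicate 1 it began 0.408 kb after the end of Dmrt1 and was 2668 bp wide (chr19:25604736-25607403), wider than the promoter peak of either gene. Its q score was 77.3 and its log2 ratio 2.73. In replicate 2 it was 844 bp wide (chr19:25605500-25606343), with a q score of 53.1 and a log2 ratio of 2.06, and lay wholly inside the peak of replicate 1. In replicate 2 its q score was above that of the Dmrt3 promoter (33.6), while in replicate 1 it was below it (91.2). The central 300 bases of the overlap (chr19:25605771-25606070, plus strand of GRCm38.p6) are printed as the shared site outside a promoter with the highest q score in both lists, with CpGs in capitals. By log2 ratio, the shared intron peak of Dmrt1 was higher in both lists (2.96 and 2.43).
Dmrt1-Dmrt3 intergenic: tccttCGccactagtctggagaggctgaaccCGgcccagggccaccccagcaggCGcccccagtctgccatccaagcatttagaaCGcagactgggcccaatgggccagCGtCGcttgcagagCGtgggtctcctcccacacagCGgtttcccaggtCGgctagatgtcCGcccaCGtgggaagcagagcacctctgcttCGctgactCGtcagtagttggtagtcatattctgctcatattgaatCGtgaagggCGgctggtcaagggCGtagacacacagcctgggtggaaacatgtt
This stretch had 16 CpGs (observed over expected 0.59, GC 60%) and held GGGCGG, but none of the SOX words and not ACATTGT.

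Between Dmrt3 and Dmrt2, the replicates parted. Replicate 1 listed a peak overlapping exon 2 of Dmrt3 (chr19:25622103-25623065, q score 53.9) and a peak 11.6 kb after the end of Dmrt3 (chr19:25635515-25636313, q score 63.2). It also listed 2 peaks upstream of Dmrt2 at 11.4 and 6.32 kb (q scores 30.0003 and 48.8). None of these was listed in replicate 2. The last replicate 2 peak of the cluster was that of the Dmrt3 promoter, so Dmrt2 had no peak within 50 kb in replicate 2, compared with 5 in replicate 1, its promoter peak included.

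**Figure D3:**
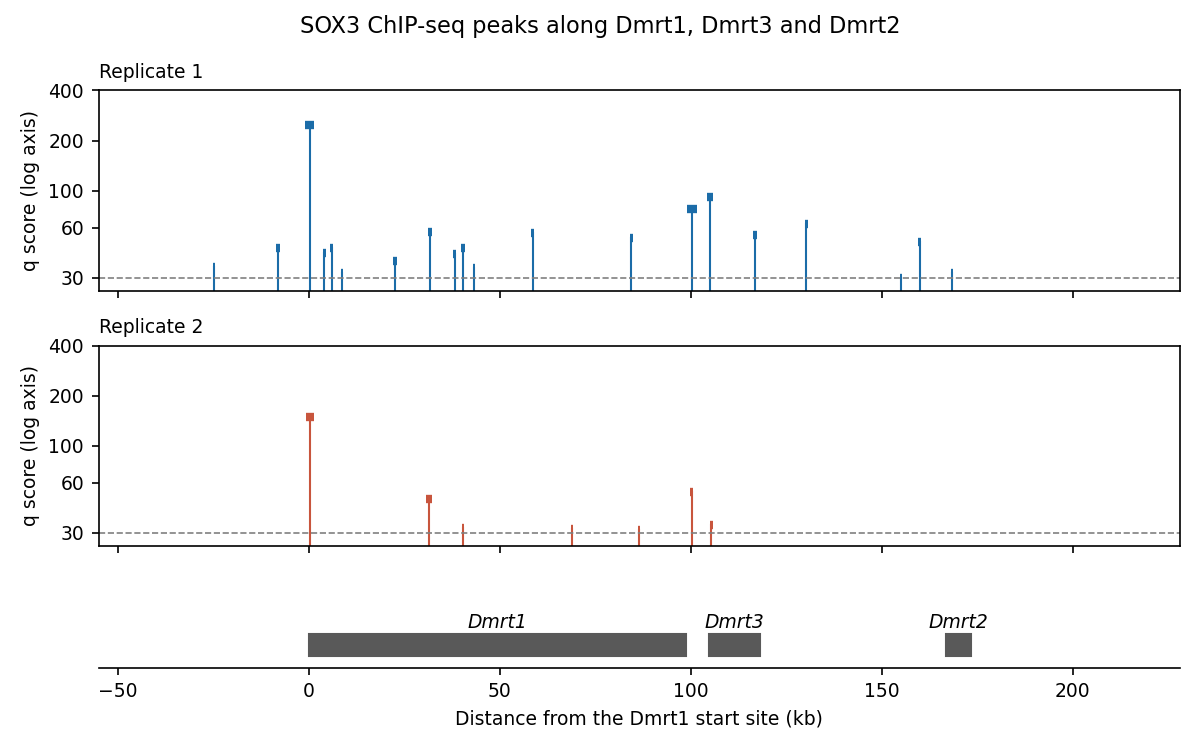
SOX3 ChIP-seq peaks along Dmrt1, Dmrt3 and Dmrt2 by distance from the Dmrt1 start site (horizontal axis, kb) and q score (vertical log axis), in replicate 1 (top, 20 peaks) and replicate 2 (middle, 7 peaks), with the genes as grey bars below. Each stem is a peak, the bar on it gives its width, and the dashed line is the authors' threshold of 30. Both panels have their highest peak at the Dmrt1 start site and a pair of peaks near 100 kb, and replicate 2 has none to the right of these.

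Outside the genes and promoters, a peak within 50 kb was listed for 5 of the 6 genes in replicate 1 (76.5% of all genes) and for 4 of them in replicate 2 (72.5% of all genes). Dmrta1 was without one in both lists and Dmrt2 in replicate 2. At Dmrta2, replicate 1 listed 4 such peaks (q scores 31.1 to 43.3) and replicate 2 listed 2 (33.8 and 39.2), all of them downstream. A pair of them overlapped, 38.2 kb after the end of the gene in replicate 1 (chr4:110021885-110022570, q score 37.1) and 38.7 kb after it in replicate 2 (chr4:110022344-110023168, q score 39.2), but by 227 bp, or 33.1% and 27.5% of their lengths. At Dmrtb1, replicate 1 listed 6 peaks (q scores 31.4 to 56.4) and replicate 2 listed 2 (31.2 and 31.9), and none of them overlapped between the lists. The 3 genes of chromosome 4 thus differed: Dmrta1 had a strong promoter peak and nothing else, and Dmrta2 and Dmrtb1 had scattered weak peaks.

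**Figure D4:**
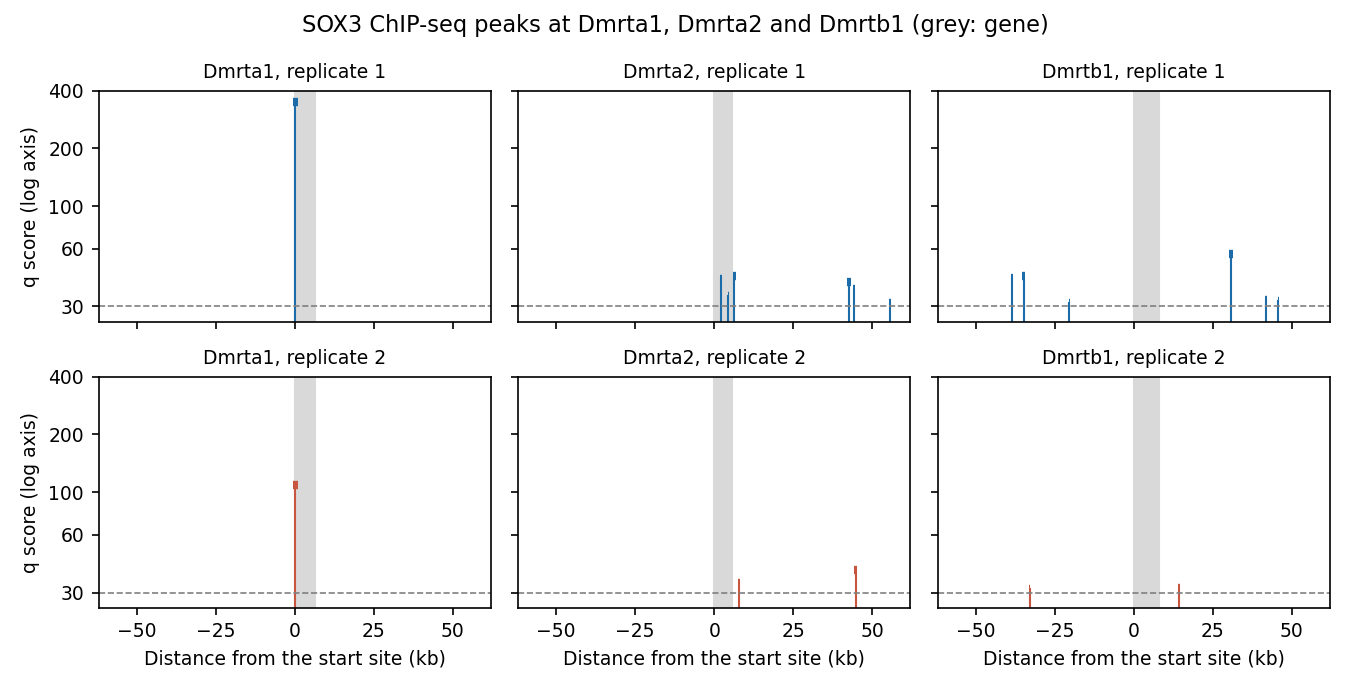
SOX3 ChIP-seq peaks at Dmrta1, Dmrta2 and Dmrtb1 (columns) in replicate 1 (top) and replicate 2 (bottom), by distance from the start site in the direction of transcription (horizontal axis, kb) and q score (vertical log axis). Grey marks the gene and the dashed line the authors' threshold of 30. Dmrta1 has a single peak in each panel, at the start site (q scores 350 and 110), and the peaks of Dmrta2 and Dmrtb1 stay at or below 56.4.

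Per 100 kb of gene and 50 kb flanks, the number of peaks in replicates 1 and 2 was 8.56 and 3.52 for Dmrt1. For Dmrt3 it was 7.94 and 3.53. The median over all genes was 3.72 and 2.56, with an interquartile range of 0.95 to 8.99 and of 0.77 to 5.94. Dmrt1 and Dmrt3 lay above the median but inside this range in both lists. Dmrt2 had 4.69 and 0, Dmrta2 had 5.68 and 1.89, and Dmrtb1 had 5.56 and 1.85, each above the median in replicate 1 and below it in replicate 2. Dmrta1 had 0.94 in both lists, below the median of either. Neighbouring members share peaks, so the values of Dmrt1 and Dmrt3 are not independent.

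Counted once each, the members had 33 peaks in replicate 1 and 12 in replicate 2. Only 4 of the 33 had a match in the list of replicate 2 (12.1%, where 25.1% of the whole list had), and 6 of the 12 in that of replicate 1 (50%, where 48.4% had). The 4 were the promoter peaks of Dmrt1 and Dmrta1 and the 2 body peaks of Dmrt1. Replicate 2 added the Dmrt3 promoter and the site between Dmrt1 and Dmrt3, where the narrower peak lay inside the wider one. The median q score of the members' peaks was 42.2 in replicate 1 (whole list 41.4) and 33.7 in replicate 2 (39.5). A q score above 60 was held by 5 of the 33 peaks (15.2%, against 27.1% of the list) and by 2 of the 12 (16.7%, against 23.2%). These 2 were the promoters of Dmrt1 and Dmrta1. Any of the 3 SOX words lay in the central 300 bp of 6 of the 33 peaks (18.2%, against 32.7% of the list) and of 3 of the 12 (25%, against 31.0%).

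Beside the 6 members, the Dmrtc genes and a list of genes of the DMRT1 network in gonads were read by the same rule. Of the 5 Dmrtc genes, Dmrtc2, expressed in meiotic germ cells, had a promoter peak in replicate 1 (q score 34.6) and none in replicate 2, and the other 4 had none in either list. Of the 15 network genes, 14 had a promoter peak in both replicates (52.2% of all genes), overlapping at 13 (50.8% of all genes). The list was chosen with earlier results of these data known, so nothing particular to the network was read from these counts. Their q scores were spread widely, from 32.8 to 568 in replicate 1 and from 32.8 to 124 in replicate 2. Sox9, the Sertoli cell determinant, had q scores of 373 and 105, and Amh, the Sertoli cell hormone, had 568 and 112. Kit, the receptor of differentiating spermatogonia, had 91.2 and 50.3. In replicate 1 the q score of Kit was that of Dmrt3. Cyp26b1, whose product degrades retinoic acid, had no peak within 2 kb of a start site in either list, but its nearest peak lay just outside, 3.16 kb away in replicate 1 and 2.43 kb away in replicate 2. The paper counts Cyp26b1 among the genes occupied by SOX3. It also took promoters as 2 kb either side, but used peaks from merged replicates, so the 2 calls are not made alike.

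The genes whose promoter peaks were most like that of Dmrt1, by the distance over the 4 percentiles of q score and log2 ratio in the 2 lists, were Marchf6 (distance 3.36), Hhat (4.72) and Lsm3 (4.96), out of 13662 genes. For Marchf6 the q score was 236 and 147, and the log2 ratio 3.76 and 3.61. This likeness is over 2 samples and describes the peaks alone.

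In ChIP-nexus, no region of either list lay within 50 kb of a member. These lists are short, with 110 regions on mouse chromosomes in replicate 1 and 18 in replicate 2. In replicate 1, the region nearest to a member was 0.911 Mb from Dmrta1, and replicate 2 had none on the chromosomes of the members. Lists of this length leave most ChIP-seq promoters without a region, and nothing was read from its absence at these genes.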

How the data were processed

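SOX3 occupancy was read from 2 ChIP-seq and 2 ChIP-nexus peak lists. For ChIP-seq, the authors aligned reads to mm10 with Novoalign (reads with several places assigned at random), removed duplicates with Picard and called peaks per replicate against input with USeq. These deposited lists carry no header line, and the names q score (a score of −10log10 of the adjusted p-value, above 30) and log2 ratio (ChIP over input, normalised by the authors) were taken from the caller's layout and the values. The deposited ChIP-nexus lists are in MACS2 2.1.1 format and give fold enrichment and −log10 q. They were used here for positions only.

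The lists hold no read counts, so depth is unknown from them and no interval that needs it was computed. The paper's reporting summary gives fewer unique reads for SOX3 replicate 1 than for replicate 2. Whether depth bears on the shift between the lists was not tested. An exact binomial 95% interval over peaks was used only to judge how far a share moved under an alternative. Replicate 1 listed 58351 peaks and replicate 2 listed 38832. The study calls its replicates biological.

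RefSeq curated transcripts (45756) of GRCm38.p6 gave start sites. A promoter was 2 kb either side of a start site, by any overlap, and a peak was found in the other list where 1 peak covered at least 50% of it. The code recovered all simulated classes and overlaps. Python 3.11.15, pandas 2.3.3 and numpy 2.4.6 were used. Named genes were the 6 members, the fixed Dmrtc and DMRT1 network lists (values for at most 5), neighbours within 50 kb and the 3 genes most like Dmrt1. The members and lists were chosen with earlier results of these data known. With 2 replicates, no test was run. Alternatives covered the q score, promoter window, distance, transcripts, overlap, peak midpoint and leaving out each replicate. The other 15 samples were not analysed here.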

Additional observations from a re-analysis of the deposited data

How the results depend on the processing

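No paired analysis was possible because the results are counts and positions of peaks and come from no test. In the values above, 3 members had a promoter peak in both replicates, 1 had a body peak in both, 4 had a peak within 50 kb outside the gene in both, and 45 peaks were counted over both lists. Of the 31 recomputed counts and shares, 23 stayed within 1.5 times the reported count or, for a share, within its 95% binomial interval. That interval treats peaks of the same genes as independent and is wide for so few peaks. With an overlap of 1 bp, the share found in replicate 2 rose from 12.1% to 21.2% and still counted as within it. The tally is therefore a loose measure of stability. A q score above 60 left 2 members with a promoter peak in both replicates (Dmrt1 and Dmrta1), 0 with a body peak, 0 with a peak within 50 kb and 7 peaks in all, of which 40% (2 of 5) and 100% (2 of 2) were found in the other list. Leaving out either replicate gave 3 to 5 members with a promoter peak, 1 to 3 with a body peak, 4 to 5 with a peak within 50 kb and 12 to 33 peaks, the higher value each time without replicate 2. These values, which are among the 31, restate the counts of the single lists. A count of members that needs both lists cannot fall when a list is left out. By gene, the calls that changed were those of Dmrt2 (none at q above 60 or within 1 kb), Dmrta2 (none under these or with the peak midpoint in the window) and Dmrt3 (replicate 1 only at q above 60). The calls of Dmrt1, Dmrta1 and Dmrtb1 did not change under the q score, window and midpoint alternatives. Peaks below the threshold are not listed, which limits each statement on a gene without a peak.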
